A study of Homo sapiens with 12 samples.

Results

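The replication-dependent histone genes were examined for changes in 5-hydroxymethylcytosine (5hmC) and 5-methylcytosine (5mC) as HL-60 cells, an established human myeloid leukemia line, differentiated toward neutrophil-like cells. A gene was counted as a member when its symbol began with HIST1H, HIST2H, HIST3H or HIST4H and an enriched region lay in its body or at most 5000 bases upstream of its start, by the deposited distances. In all, 36 of 20404 genes with a 5hmC region were members, holding 53 of 327931 regions. Of 12637 genes with a listed 5mC region 22 were members, holding 19 of 65535 regions. The members came to 45 symbols, of which 13 were in both tables. Several members shared a region: 8 of the 53 5hmC regions and 3 of the 19 5mC regions counted for more than 1 member, so members are not independent of each other.

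Undifferentiated cells (U) were grown without dimethyl sulfoxide (DMSO) and sorted as viable and negative for CD11b, a surface marker of myeloid maturation. Differentiated cells (D) received 1.5% (211 mM) DMSO for 7 days and were sorted as viable and positive for CD11b. Each state had 3 biological replicates of the same line, and the DNA of each replicate was divided between capture with an antibody against 5mC (MeDIP) and capture with an antibody against 5hmC (hMeDIP), giving 12 libraries. The states therefore differ in treatment and in the gate together, and their parts cannot be told apart. Capture counts also follow CpG density and the number of copies of a locus, and fewer cells carrying a mark cannot be told apart from fewer marked molecules per cell. No input library was used here.

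Replication-dependent histone genes encode the bulk of the core histones H2A, H2B, H3 and H4 and of the linker histone H1, and are transcribed mainly while DNA is copied. Their RNAs end in a stem-loop bound by SLBP in place of a poly(A) tail, and their transcription is driven by NPAT, a target of the cyclin E-CDK2 kinase. They are short, mostly without introns, and clustered: the HIST1 genes lie on chromosome 6, the HIST2 and HIST3 genes on chromosome 1 and HIST4H4 on chromosome 12. 5mC is written by DNA methyltransferases, and TET enzymes oxidize it to 5hmC.

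The upstream bases of members on which the results turn are printed first, because their CpG content bears on what antibody capture can register. RefSeq (GRCh38.p14) held a gene for all 45 members and a promoter sequence for 39. The deposited regions are on hg19, so these coordinates cannot be laid over those of the regions given further on. Each sequence is the 250 bases before the annotated start on the gene's own strand, with CG dinucleotides in capitals.
HIST1H4D (chr6:26189113-26189362, minus strand): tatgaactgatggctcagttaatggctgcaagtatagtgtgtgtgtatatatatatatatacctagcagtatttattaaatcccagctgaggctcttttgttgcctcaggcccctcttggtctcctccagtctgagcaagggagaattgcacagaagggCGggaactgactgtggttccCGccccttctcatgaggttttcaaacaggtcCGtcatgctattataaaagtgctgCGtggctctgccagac
HIST2H4A (chr1:149832407-149832656, plus strand): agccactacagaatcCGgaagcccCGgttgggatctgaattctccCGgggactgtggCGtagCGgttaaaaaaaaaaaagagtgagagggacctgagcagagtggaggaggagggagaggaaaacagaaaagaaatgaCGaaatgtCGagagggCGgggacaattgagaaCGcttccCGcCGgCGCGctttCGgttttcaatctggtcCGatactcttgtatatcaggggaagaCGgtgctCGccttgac
HIST1H2BI (chr6:26272681-26272930, plus strand): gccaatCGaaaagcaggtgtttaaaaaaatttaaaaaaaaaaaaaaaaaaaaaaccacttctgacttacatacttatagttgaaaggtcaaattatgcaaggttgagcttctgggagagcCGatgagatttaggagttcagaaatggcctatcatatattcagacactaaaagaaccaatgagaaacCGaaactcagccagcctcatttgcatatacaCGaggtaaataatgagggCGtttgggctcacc
HIST1H1A (chr6:26017788-26018037, minus strand): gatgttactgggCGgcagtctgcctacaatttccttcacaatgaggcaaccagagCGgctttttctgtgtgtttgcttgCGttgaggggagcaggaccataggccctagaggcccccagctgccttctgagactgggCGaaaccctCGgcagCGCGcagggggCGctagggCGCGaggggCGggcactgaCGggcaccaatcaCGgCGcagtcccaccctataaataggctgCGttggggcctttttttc

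HIST1H2AJ and HIST1H2BM point away from each other, and 1 5mC region covers both. The 244 bases between their starts (chr6:27814778-27815021, plus strand, GRCh38.p14) hold 9 CG dinucleotides:
HIST1H2BM: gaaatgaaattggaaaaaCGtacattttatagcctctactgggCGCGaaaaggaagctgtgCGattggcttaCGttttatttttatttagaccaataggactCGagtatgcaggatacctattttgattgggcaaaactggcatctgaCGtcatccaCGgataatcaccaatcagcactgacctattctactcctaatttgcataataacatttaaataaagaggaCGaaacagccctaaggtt

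The upstream bases of HIST2H4A and HIST2H4B, genes for the same H4 protein in a duplicated segment, differed at 0 of 250 positions. Reads there cannot be assigned to one copy, and the deposited annotation gives both symbols to the same regions. The HIST2H4A sequence held 17 CG dinucleotides and the HIST1H1A sequence 15. HIST1H4D held 4 and HIST1H2BI 5. Over windows of 300 bases (250 before and 50 after the start), the 39 members had a median of 11 CG dinucleotides (5 to 21), beside 14 (0 to 77) over 27305 RefSeq promoters. The H4 members had the highest median, 16, and the H3 members the lowest, 8.

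Histone promoters are known for short shared elements, and 4 were searched on both strands of the same windows. None of them contains another. The octamer ATTTGCAT, a site for POU2F1, was in 8 of 9 H2A and 8 of 10 H2B members, in 1 of 5 H3 members and in 0 of 4 H1 and 0 of 11 H4 members, beside 1.8% of all promoters. AAACACA, the element named after H1 genes, was in 4 of 4 H1 members and 1 of 9 H2A members and in no H2B, H3 or H4 member (5.76% of all promoters). CCAAT was in 30 of 39 members, among them 2 of 11 H4 members (35.7% of all promoters). TATAAA was in 27 of 39 (12% of all promoters). Windows of divergent neighbours overlap, so 1 match can count for both genes. Such pairs are HIST1H2AA with HIST1H2BA, HIST1H2AE with HIST1H2BG, HIST1H2AJ with HIST1H2BM and HIST1H3D with HIST1H2BF. HIST1H3D is the H3 member with the octamer. A match describes the letters in the window and is not evidence of binding.

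Coverage differed by family. RefSeq lists 71 protein-coding genes with an older symbol of these prefixes, of which 34 were 5hmC members, 22 were 5mC members and 28 were in neither table. The remaining 5hmC members, HIST2H2BA and HIST2H2BC, are not annotated as protein-coding. No H1 gene of 6 had a 5hmC region, whereas 4 of 6 were in the 5mC list. For H3 genes the split was the other way, with 6 of 15 in the 5hmC table and 1 of 15 in the 5mC list. For H4 genes it was 9 of 15 and 8 of 15, for H2A genes 9 of 17 and 6 of 17, and for H2B genes 10 of 18 and 3 of 18. The deposited 5mC list was cut to the regions with the smallest p-values (the largest in the authors' deposited table was 0.0165), so a missing 5mC region says nothing about methylation there. The annotation also gives a region to the nearest gene or genes only.

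Total counts in regions ranged from 13010267 to 33693880 per 5hmC library, and a member region held on average 19.3 (D2) to 78.5 (U1) counts. Listed 5mC regions held 6076100 to 9670011 counts per library, which is not the depth of those libraries, and a member region 103 to 178 on average. HL-60 is known for extra copies of MYC and for loss of CDKN2A. In CPM, which scales each library to one total, 5hmC at MYC was 1519 ± 56.7 in U and 1155 ± 146 in D (SD, n = 3). At CDKN2A it was 2.33 and 2.40 CPM. The MYC region spans 83400 bases and the CDKN2A region 600. Per kilobase, MYC had 18.2 CPM in U and 13.8 in D, and CDKN2A 3.88 and 4.01. By level per kilobase CDKN2A stood 7.94% up from the lowest of all genes, and the member HIST1H3I stood lower (2.91 in U and 3.88 in D). The CDKN2A value therefore does not by itself show a loss. At ITGAM, which encodes CD11b, 5hmC was 0.17 ± 0.06 (log2, SE) higher in D (adjusted p = 0.0330).

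For 5hmC, 17 of 36 members fell in differentiated cells, 2 rose and 17 did not pass (adjusted p under 0.05). Over all 20404 genes 51.6% passed, 25.7% higher and 25.8% lower. The median log2 fold change (D over U) was -0.32 over members and 0.0064 over all genes. In 19 members every D library lay below every U library (29.5% of all genes), and in 3 every D library lay above (27.5%). Summed over member regions, 5hmC was 113, 109 and 108 CPM in the U libraries and 99.7, 91.5 and 97.9 in the D libraries. The number of calls dropped most without the deepest library of each state. Without U1 10 members passed (9 lower), and without D3 8 passed (7 lower). The part of depth in this was not tested. DESeq2 called 9, of which 8 were lower. Under all alternatives run, 5 of the 17 falls stayed called, at HIST1H3A, HIST1H4C, HIST1H2AE, HIST2H4A and HIST2H4B, as did the rise at HIST2H2BF.

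**Figure D1:**
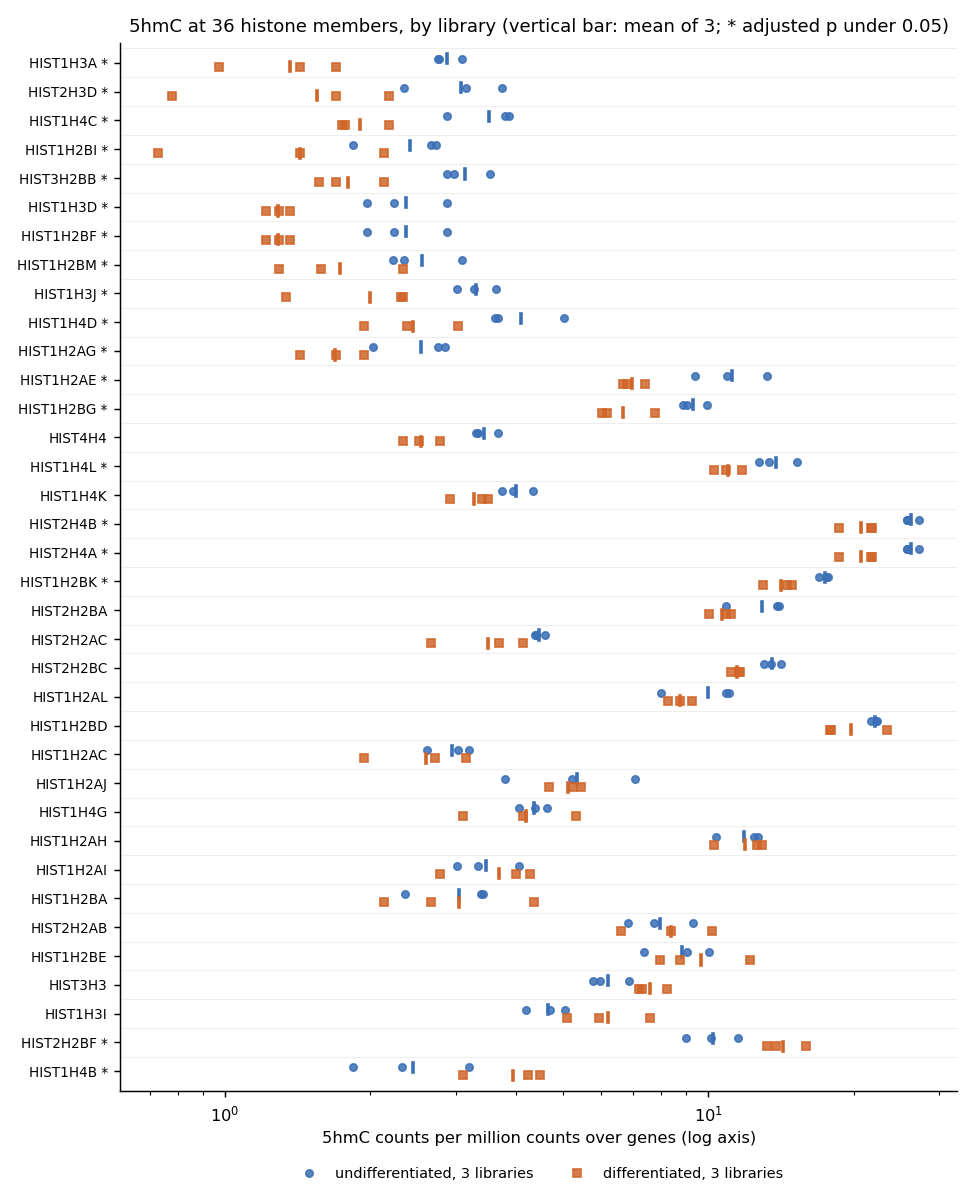
5hmC at the 36 histone members in CPM over genes (log axis), with 3 undifferentiated libraries as blue circles, 3 differentiated libraries as orange squares and vertical bars at the means. Members are ordered by log2 fold change, from HIST1H3A (-1.03) at the top to HIST1H4B (0.74) at the bottom, and 19 members carry an asterisk for an adjusted p under 0.05.

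The H3 genes held the largest falls, with 4 of 6 lower and 0 higher (median -0.76). At HIST1H3A, 5hmC was 3.09, 2.78 and 2.76 CPM in the U libraries and 1.70, 0.971 and 1.43 in the D libraries. Every D library lay below every U library (log2 fold change -1.03, SE 0.24, adjusted p = 0.00328). The 1 region behind it lay 319 bases upstream of the start. HIST2H3D had 3.75, 2.35 and 3.15 CPM in U and 2.18, 0.777 and 1.70 in D (-0.93 ± 0.28, adjusted p = 0.0144), again with no overlap, but the call was lost without U1 (highest adjusted p over alternatives 0.116). HIST1H3J, with a region 31 bases upstream, fell by 0.71 ± 0.24 (adjusted p = 0.0221), a call lost without U1, U2 or D1 and under DESeq2. HIST1H3D fell by 0.82 ± 0.26 (adjusted p = 0.0188) through a region it shares with HIST1H2BF, and lost the call without U3, D1 or D3 and under DESeq2. The H3 members that did not pass were HIST1H3I (0.31 ± 0.18) and HIST3H3 (0.29 ± 0.15). HIST1H3I had 1 region of 1600 bases, and HIST3H3 had regions of 400 bases (-0.24) and 1200 bases (0.58).

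Among the 9 H4 genes, 5 fell and 1 rose (median -0.35). HIST1H4C had 3.87, 2.88 and 3.80 CPM in U and 2.18, 1.75 and 1.77 in D, with no overlap (-0.91 ± 0.23, adjusted p = 0.00460). Its region starts 236 bases beyond the gene, within the kilobase that follows the start. HIST1H4D had 3.63, 5.02 and 3.67 CPM in U and 3.03, 1.94 and 2.38 in D (-0.70 ± 0.22, adjusted p = 0.0191). Its region lay 97 bases upstream of the start, near the sequence printed above with 4 CG dinucleotides, and the call was lost without U2, without D3, with the replicate number as a block (adjusted p = 0.0560) and under DESeq2. HIST1H4L fell by 0.37 ± 0.12 (adjusted p = 0.0194), lost without U1 or D3 and under DESeq2. HIST2H4A and HIST2H4B, with identical counts from 4 shared regions, fell together by 0.33 ± 0.08 (26.3 ± 0.911 to 20.7 ± 1.80 CPM, SD, n = 3).

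HIST1H4B went the other way. Its 5hmC was 2.32, 3.20 and 1.84 CPM in the U libraries and 4.25, 3.11 and 4.49 in the D libraries, so that D2 lay below U2 (0.74 ± 0.23, adjusted p = 0.0146). It was also the member with the highest 5hmC per kilobase of region in differentiated cells, 9.87 CPM against 6.13 in undifferentiated cells. The call was lost without U1, without D3 and under DESeq2. HIST4H4 (-0.41 ± 0.20), HIST1H4K (-0.35 ± 0.19) and HIST1H4G (-0.04 ± 0.20) did not pass.

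Of 12 H2B genes 6 fell and 1 rose (median -0.31), and of 9 H2A genes 2 fell and 0 rose (median -0.15). HIST3H2BB, a gene of the HIST3 cluster, had 2.97, 2.88 and 3.54 CPM in U and 1.70, 2.14 and 1.56 in D (-0.84 ± 0.23, adjusted p = 0.00776), and passed under all alternatives but leaving out D3 (adjusted p = 0.0606). HIST1H2BI had 2.74, 2.67 and 1.84 CPM in U and 0.728, 2.14 and 1.43 in D (-0.88 ± 0.30, adjusted p = 0.0266). Its states overlapped, D2 lying above U3, and 6 of 13 alternatives did not keep the call, among them leaving out U1, U2, D1 or D3. HIST1H2BM (-0.75 ± 0.27) also overlapped between states and was lost in 5 of 13 alternatives, among them leaving out U1, D1 or D3. The remaining H2B falls were HIST1H2BF (-0.82), HIST1H2BG (-0.50) and HIST1H2BK (-0.32). HIST1H2BF was lost without U3, D1 or D3 and under DESeq2. HIST1H2BG and HIST1H2BK were lost without U1 or D3, HIST1H2BK also under DESeq2. HIST1H2BK rested on its upstream regions: with regions in the gene body alone its value was 0.014.

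HIST1H2AE had the smallest adjusted p of the H2A genes. Its 5hmC was 10.9, 9.40 and 13.3 CPM in U and 7.40, 6.80 and 6.66 in D, from 2 regions (-0.68 ± 0.15, adjusted p = 0.00226). These lay 1549 and 3749 bases upstream of its start and nearer to HIST1H2BG (829 and 3029 bases). HIST1H2AE and HIST1H2BG, its divergent neighbour, were also the members with the highest 5hmC per kilobase in undifferentiated cells, at 9.33 and 9.28 CPM, falling to 5.79 and 6.66. HIST1H2AG fell by 0.68 ± 0.25 (adjusted p = 0.0331) and was lost in 6 of 12 alternatives, among them leaving out U1, U3, D1 or D3. HIST2H2BF, an H2B gene whose body spans several regions, rose from 8.98, 10.1 and 11.5 CPM to 13.8, 13.2 and 15.9 (0.55 ± 0.13, adjusted p = 0.00293). Its region with the largest rise is shared with FCGR1A, which encodes an Fc receptor of myeloid cells.

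Among members with high counts, 3 with small values did not pass. HIST1H2AH had 12.4, 12.7 and 10.4 CPM in U and 12.6, 10.3 and 12.9 in D (0.03 ± 0.12). HIST1H2BD had 22.3, 22.2 and 21.8 in U and 23.4, 17.9 and 17.9 in D (-0.17 ± 0.10). D1 set this value: without it HIST1H2BD was at -0.30 and passed (adjusted p = 0.0252). HIST1H2AL had 9.99 ± 1.72 and 8.74 ± 0.497 CPM (-0.21 ± 0.14, SD, n = 3). The other members that did not pass were HIST1H2AC, HIST1H2AI, HIST1H2AJ, HIST1H2BA, HIST1H2BE, HIST2H2AB, HIST2H2AC, HIST2H2BA and HIST2H2BC, with values from -0.30 (HIST2H2BA) to 0.25 (HIST1H2BE). Of these, HIST2H2BA passed as a fall without U2, without D2 or without TMM scaling, and HIST2H2BC without TMM scaling. By cluster, 13 of 25 HIST1, 3 of 8 HIST2, 1 of 2 HIST3 and 0 of 1 HIST4 members fell, and 1 HIST1 and 1 HIST2 member rose.

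**Figure D2:**
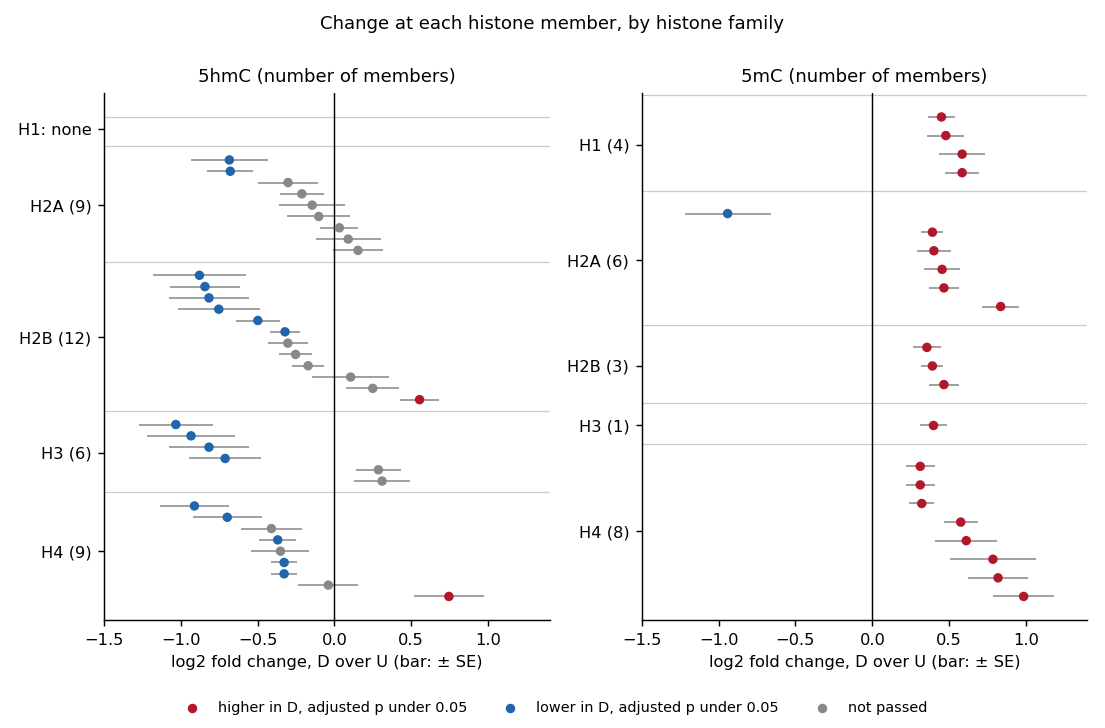
Log2 fold change (D over U) with SE of each member gene, grouped by histone family, for 5hmC (left) and 5mC (right); red and blue mark higher and lower values with an adjusted p under 0.05 and grey the rest. In 5hmC the H3 family has 4 of 6 members lower and H1 has none measured, while in 5mC 21 of 22 members lie to the right of 0.

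Counting each region once, 20 of the 53 member regions fell and 5 rose (37.7% and 9.43%). Over all 327901 tested regions 50.3% passed, 27% higher and 23.3% lower. The median was -0.24 for members and -0.04 for all regions. Without TMM scaling, which moved the median of all regions to -0.25, 24 member regions fell and 1 rose. The authors' deposited table gave an adjusted p under 0.05 at 20 of the 53. Without U1 9 fell and 2 rose, without D3 7 fell and 1 rose, and DESeq2 called 5 lower and 1 higher.

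Member regions were also set beside all regions of the same place, and separately of the same width, but not matched on both. On a start or the kilobase after it, the median width was 400 bases for member regions and 800 for all. In CpG islands it was 400 and 1000. Of 9 member regions on a gene start or the kilobase after it, 5 fell and 0 rose, whereas 11.8% of all 5574 such regions fell and 35.3% rose. In regions that overlap a CpG island, 3 of 3 member regions fell, beside 3.77% lower and 42.1% higher among 5675 such regions (45.9% called); the median was -0.99 for members and 0.38 for all. These 3 lay on HIST2H4A and HIST2H4B (chr1:149804601-149805000 and chr1:149832001-149832400, hg19) and beside HIST3H2BB (chr1:228646401-228646800, hg19). The first of them had 1.30, 1.16 and 1.75 CPM over regions in U and 0.451, 0.537 and 0.564 in D (-1.37 ± 0.30, adjusted p = 0.000306). The second had 1.36, 1.06 and 1.51 in U and 0.451, 0.627 and 0.783 in D (-0.99 ± 0.29, adjusted p = 0.00442). Both lie over identical copies of 1 gene and rest on 6 to 50 reads per library, so they are close to 1 measurement. The regions more than 1000 bases upstream of the same genes did not pass (-0.12 and -0.14).

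Width went with direction in all regions, and most member falls lay in the narrowest regions. Of 24 member regions of at most 400 bases 15 fell and 2 rose, and 34% of all 97065 such regions fell and 23.5% rose. Among regions of 600 to 1000 bases 4 of 18 members fell and 1 rose, beside 19.7% and 27.7% of all. Above 1000 bases 1 of 11 members was lower and 2 higher, beside 16.1% and 30.8% of all. The median there was -0.12 for members and 0.17 for all. Member regions inside a gene and far from its start were likewise 1 lower and 2 higher of 7, beside 25.2% and 24.3% of all. Narrow regions hold few counts, and their part in the member result was not tested. On the HIST1 interval of chromosome 6 (hg19 25722801 to 27859000), 14 of 35 member regions fell and 1 rose. The 291 other regions of that interval were 19.9% lower and 22% higher.

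The member regions with the largest rises were those of HIST1H4B (0.76 ± 0.24, 1521 bases upstream), HIST2H2BF (0.66 ± 0.18, in the body) and HIST3H3 (0.58 ± 0.20, 1375 bases upstream). After the HIST2H4A and HIST2H4B start region, the largest falls were those of HIST1H3A (-1.01 ± 0.28) and the second HIST2H4A and HIST2H4B copy. At HIST2H2AB, an H2A gene, neighbouring regions changed in opposite directions. The region 535 bases upstream was higher in D (0.55 ± 0.18, adjusted p = 0.0127) and the region 2535 bases upstream lower (-0.82 ± 0.27, adjusted p = 0.0110), and the gene's sum did not pass.

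**Figure D3:**
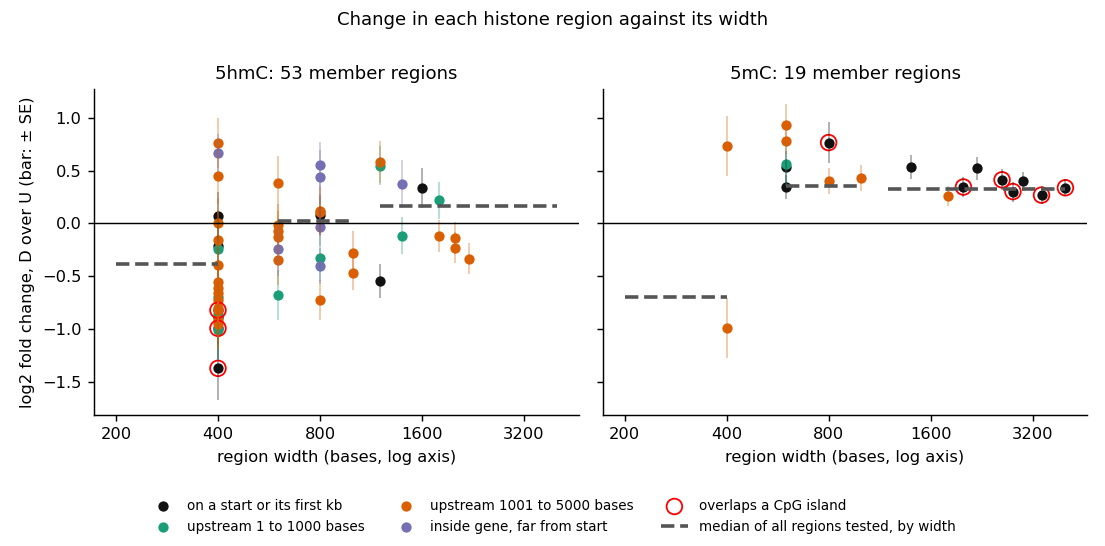
Log2 fold change (D over U, with SE) of each member region against its width in bases (log axis) for 5hmC (left, 53 regions) and 5mC (right, 19 regions), coloured by place relative to a gene start, with red rings around CpG island regions. The 3 ringed 5hmC regions are 400 bases wide and lie at -0.82 or below, while the 6 ringed 5mC regions lie above 0; dashed lines are medians of all tested regions of similar width.

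For 5mC, 21 of 22 members rose and 1 fell, beside 84.3% of the 12637 listed genes called (41% higher and 43.2% lower). The list was chosen for a difference between the states, so its share of calls has no meaning for the genome, and gene p-values carry no correction for that choice. The median log2 fold change was 0.46 over members and 0.0031 over all listed genes. In 20 members every D library lay above every U library (39% of listed genes). Summed over member regions, 5mC was 292, 295 and 281 CPM in the U libraries and 382, 382 and 380 in the D libraries. Each of the 22 members rested on 1 region. Without TMM scaling, which moved the median of listed genes to -0.13, 19 rose and 1 fell; leaving out any 1 library kept 21 or 22 calls.

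The linker histones rose together. All 4 listed H1 genes were higher in D: HIST1H1D and HIST1H1T by 0.58, HIST1H1C by 0.48 and HIST1H1A by 0.45. HIST1H1A had 57.9, 52.9 and 69.3 CPM in the U libraries and 80.1, 82.5 and 83.6 in the D libraries (0.45 ± 0.09, adjusted p = 6.94e-06). Its region of 3000 bases covers the start, near the printed sequence with 15 CG dinucleotides. HIST1H1T, the H1 gene known for expression in testis, had 17.2, 20.2 and 17.0 in U and 29.7, 24.9 and 26.4 in D. The states did not overlap in any of the 4.

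The H4 genes held the largest 5mC rises, with 8 of 8 higher (median 0.59). HIST1H4B had 12.1, 9.22 and 6.79 CPM in U and 16.0, 18.2 and 21.9 in D (0.98 ± 0.20, adjusted p = 1.63e-05). HIST1H4D had 11.4, 8.87 and 10.5 in U and 17.9, 21.9 and 15.4 in D (0.82 ± 0.19, adjusted p = 0.000171), from a region over the gene and its CpG island. HIST1H4C rose from 6.04, 4.26 and 4.08 to 9.09, 5.39 and 10.1 (0.78 ± 0.28, adjusted p = 0.00881); D2 lay below U1, and the call was lost without D3 and under DESeq2. HIST1H4J (0.61), HIST1H4H (0.58), HIST1H4F (0.32) and the identical HIST2H4A and HIST2H4B (0.31) made up the rest. HIST2H4A and HIST2H4B did not pass without TMM scaling.

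Among H2A genes 5 of 6 rose. HIST1H2AL had 25.7, 24.1 and 24.8 CPM in U and 41.3, 47.5 and 45.1 in D, the smallest adjusted p of the members (0.84 ± 0.12, 1.20e-08), in a region 4908 bases upstream of its start. HIST1H2AH had the highest 5mC per kilobase, 57.6 CPM in U and 76.2 in D, followed by HIST1H2AL (41.5 and 74.4) and HIST1H2AI (38.5 and 52.8). The HIST1H2AH region, on its start or the kilobase after it, also lies in MIR3143. The HIST1H2AI region lay 4578 bases upstream of its start and nearer to HIST1H2BL (3858 bases). The shared regions of HIST1H2AJ with HIST1H2BM (0.47) and of HIST1H2AA with HIST1H2BA (0.39) rose, as did HIST1H2BE (0.36) and the only listed H3 gene, HIST1H3E (0.40). HIST2H2AC was the exception: it had 5.72, 10.998 and 9.17 CPM in U and 4.41, 5.05 and 3.93 in D (-0.94 ± 0.28, adjusted p = 0.00222). Its 1 region of 400 bases held 14 to 31 counts per library. That region lay 3726 bases upstream of its start and nearer to HIST2H2BE (1211 bases).

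**Figure D4:**
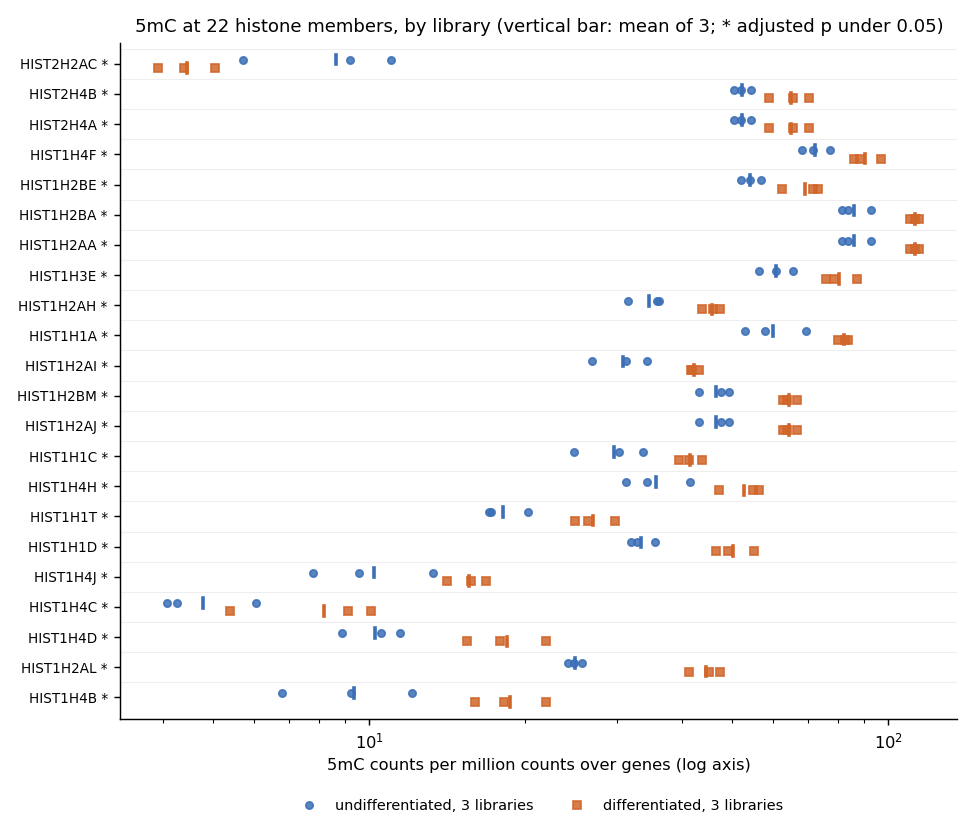
5mC at the 22 listed histone members in CPM over listed genes (log axis), with 3 undifferentiated libraries as blue circles, 3 differentiated libraries as orange squares and vertical bars at the means. In 20 members every orange square lies to the right of every blue circle; HIST2H2AC, at the top, is reversed, and HIST1H4C overlaps.

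Counting each 5mC region once, 16 of 19 rose and 1 fell (84.2% and 5.26%), with p-values adjusted over the 328588 tests that the authors' deposited p-values imply. Of all listed regions 72.7% passed, 35.7% higher and 37% lower. This count depended on scaling: without TMM, or with TMM computed on strong regions only, 3 member regions passed, 2 higher and 1 lower. DESeq2 called 1, and without U3 11 passed. The authors' deposited table gave an adjusted p under 0.05 at 17 of 19. On the part of the HIST1 interval with listed members, 17 of 17 member regions and 79.5% of the 73 other listed regions had a log2 fold change above 0, with medians of 0.42 and 0.43. The other regions of that interval were 53.4% higher and 12.3% lower. In CpG islands 6 of 6 member regions rose, beside 70.7% of all listed island regions. The median there was 0.34 for members and 0.39 for all, and the median width 2700 and 1800 bases.

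**Figure D5:**
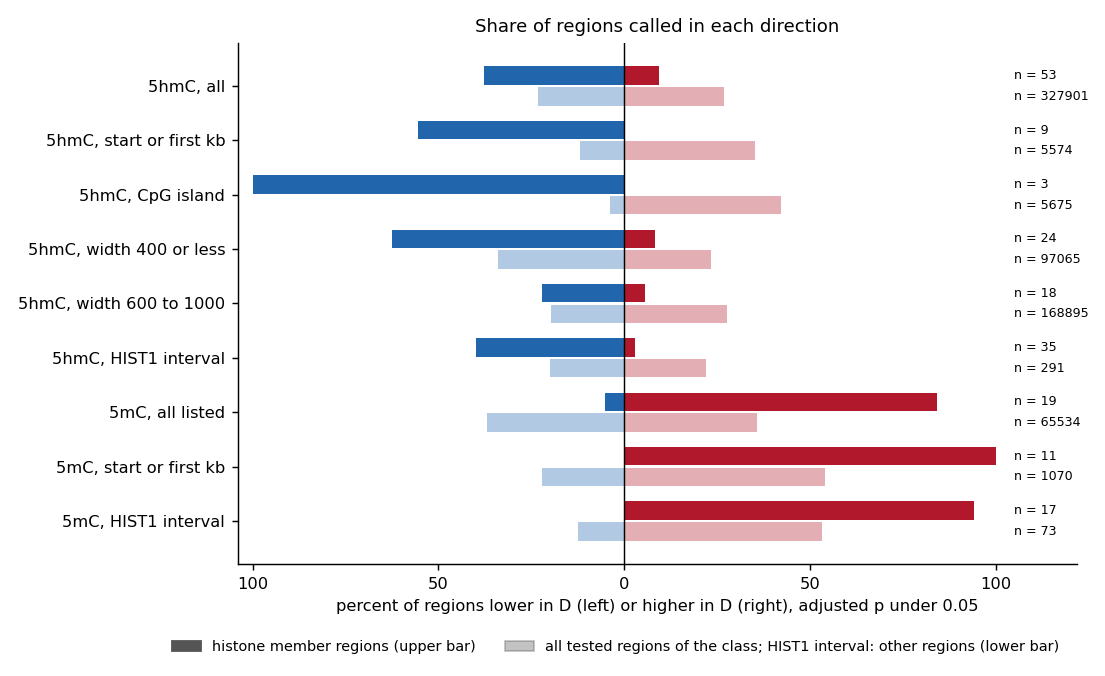
Percent of regions with an adjusted p under 0.05 that were lower (blue, left) or higher (red, right) in differentiated cells, for histone member regions (solid) and all tested regions of the same class (pale; for the HIST1 interval, the other regions of that interval), with the number of regions at the right. Member 5hmC regions lean to the left in each class shown, including starts and CpG islands where all regions lean to the right, and member 5mC regions lean to the right; 5hmC regions above 1000 bases, where 1 member was lower and 2 higher, are not drawn.

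Read gene by gene, 5 members had lower 5hmC and higher 5mC, both past the threshold: HIST1H2BM, HIST1H4C, HIST1H4D, HIST2H4A and HIST2H4B. That is 5 of the 13 members in both tables, beside 3.8% of all 12329 genes in both, and HIST2H4A and HIST2H4B are 1 measurement. None of the 5 kept both calls under all alternatives run. The 5hmC call of HIST1H2BM was kept in 8 of 13 alternatives and that of HIST1H4D in 9 of 13. With the replicate block both were lost (adjusted p = 0.0868 for HIST1H2BM). The 5mC call of HIST1H4C was lost without D3 and under DESeq2, and those of HIST2H4A and HIST2H4B without TMM scaling. HIST1H4B rose in both marks, as did 18.3% of the genes in both tables. The places behind the opposite changes differed in whole or in part. At HIST1H2BM the 5hmC region lay 1623 bases upstream and nearer to HIST1H2AJ (881 bases), and the 5mC region over both genes. At HIST1H4D the 5hmC region lay 97 bases upstream and the 5mC region over the gene. At HIST1H4C the 5hmC region lay within the kilobase after the start and the 5mC region 1577 bases upstream. At HIST2H4A and HIST2H4B 1 of the 4 5hmC regions shared 1800 bases with the 5mC region, and in that one 5hmC did not pass (-0.14, adjusted p = 0.438). Only 7 of the 53 5hmC member regions overlapped a listed 5mC region, and at none of these 7 did 5hmC fall past the threshold. At 5 of them (HIST2H4A and HIST2H4B, HIST1H2BE, HIST1H2AH, HIST1H2AI and HIST1H2AJ) the 5mC value was above 0 and 5hmC did not pass, with values from -0.22 to 0.22. HIST1H4B was higher in both (5mC 0.93, 5hmC 0.76) over 400 shared bases, and at HIST2H2AC 5mC fell with 5hmC at -0.29 (adjusted p = 0.239).

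Genes that make and process histone RNA were described beside the members. Of 27 such genes with 5hmC values 18 fell and 2 rose (median -0.28), beside 25.8% lower and 25.7% higher over all genes. The largest changes were at LSM10 (-0.70 ± 0.16) of the U7 particle that cuts histone RNA, the processing factor CPSF4 (-0.68 ± 0.09), and CCNE1 (-0.64 ± 0.13) and CDK2 (-0.55 ± 0.13), the kinase upstream of NPAT. In 5mC 15 of 20 fell and 2 rose, beside 43.2% lower and 41% higher over all listed genes, the largest changes being SYMPK (-0.79), SLBP (-0.72), NCBP1 (-0.67) and LSM11 (0.62). In 5mC this direction was opposite to that of the histone genes themselves.

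Beside the same shares, 13 of 28 histone chaperone genes fell and 2 rose in 5hmC, led by NPM3 (-1.20), the histone importer IPO4 (-0.90), RBBP7 (-0.71) and HJURP (0.55), the chaperone of the centromeric histone. In 5mC 12 of 18 fell and 2 rose, with NPM2 (-0.99), ATRX (-0.86), ANP32E (-0.70) and SUPT6H (-0.60) in front. Variant histone genes, which are expressed outside DNA synthesis, were mixed: 4 of 16 fell and 3 rose in 5hmC, among them H3F3B (-0.73), H2AFV (-0.62), H2AFY (0.42) and HILS1 (-0.41). These counts are near the shares over all genes. The other 2 rises, H2AFB1 and H2AFB3, had identical counts. Without U1 3 variants fell and 0 rose, without D3 4 and 0, and under DESeq2 3 and 0. Over all listed genes 43.2% fell and 41% rose in 5mC. Of 5 listed variants 2 fell (H3F3B at -0.23 and CENPA at -0.22) and 1 rose (H2BFWT at 0.66). Without U2, and under DESeq2, 0 fell and 1 rose.

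Of 32 non-histone genes in or beside the HIST1 cluster, 10 rose and 6 fell in 5hmC (median 0.16), beside 25.7% higher and 25.8% lower over all genes. Without U1, and with the replicate block, 6 rose and 4 fell, and DESeq2 called 5 higher and 4 lower. The largest changes were at BTN2A3P (-0.88), PRSS16 (0.77), POM121L2 (0.72) and ZNF165 (-0.63). In 5mC 8 of 13 listed neighbours rose and 3 fell (median 0.54), beside 41% higher and 43.2% lower over all listed genes (median 0.0031). ZNF322 (0.92), HFE (-0.88), GUSBP2 (0.86) and PRSS16 (0.74) changed most. PRSS16, a protease gene known from the thymus, rose in both marks.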

How the data were processed

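Per the submitters' processing notes, BWA, SAMtools 0.1.18, bedtools 2.17.0, SICER 1.1 and edgeR 2.11 were used on GRCh37 (hg19), with no role given for each. For each mark the authors deposited a table of regions on a 200-base grid with unnormalized read counts for 6 libraries. The authors also deposited log2 fold changes, whose sign is U over D, and p-values with adjusted p-values per region. Distances to genes, starts and CpG islands are given per the file headers. From the values, a start distance of 0 covers the start and about the kilobase after it, and positive values are upstream. Of 327949 5hmC regions 18 held no values. The 5mC table ends at an adjusted p of 0.0826.

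Counts were summed per gene over regions in the body or at most 5000 bases upstream. D was compared with U (n = 3 each) by the quasi-likelihood F test of edgeR 4.0.16 in R 4.3.3 after filterByExpr and TMM scaling. The fit was made over all genes or regions, and adjusted p-values (Benjamini-Hochberg) were called under 0.05. All 36 and 22 members passed the filter. CPM are TMM-scaled, over gene sums or over regions as stated, and gene CPM and region CPM are not comparable. SE was taken from the fold change and F. Island shores extend 2000 bases. On simulated counts the gene test recovered 96% of 2-fold and 63% of 1.5-fold changes for 5hmC genes (75% and 14% for 5hmC regions), and 97% and 60% for 5mC genes (70% and 20% for 5mC regions). The simulation gave every feature the same fixed dispersion and placed changes only in features above a minimum mean count. Several members hold few counts (HIST1H2BF 7 to 33 per 5hmC library), so these rates need not hold for them. Alternatives were scaling, filter, DESeq2 1.42.0, the replicate number as a block, leaving out each library, and narrower rules for regions per gene.

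Genes were named by size of change, level per kilobase and shared counts. Members and lists were chosen with earlier results of these data known.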

Additional observations from a re-analysis of the deposited data

How the results depend on the processing

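For 5hmC, 19 members passed (2 higher). This moved to 9 with DESeq2 (1.42.0). With gene bodies only, where fewer members had a region, 4 passed. The count ranged from 8 to 20 when 1 library was left out, the lowest being 10 without U1 and 8 without D3. The 25 called 5hmC regions moved to 6 with DESeq2 and ranged from 8 (without D3) and 11 (without U1) to 25. The 5hmC gene median (-0.32) was -0.37 with at most 2000 bases upstream and ranged from -0.35 to -0.28 (without U1). The island median (-0.99) ranged from -1.32 (without D3) to -0.82. HIST1H2BK lost its call without U1, without D3 and under DESeq2, and reversed to 0.014 with gene bodies only and to 0.018 with at most 2000 bases upstream. For 5mC, 22 called members became 10 with gene bodies only. That rule left 18 member values over both marks. Of these 17 kept their outcome and 1, HIST1H2BK in 5hmC, reversed. The lower counts with gene bodies only thus come mostly from fewer members tested. The 17 called regions became 3 when TMM was left out, 3 when it used strong regions alone and 1 with DESeq2, and ranged from 11 (without U3) to 14. The gene median (0.46) was 0.33 without TMM, 0.37 with TMM on strong genes, 0.41 with gene bodies only and 0.53 with regions of 1 member, and ranged from 0.41 to 0.51 by library. The island median (0.34) was 0.084 with no TMM and 0.11 with TMM from strong regions, and ranged from 0.31 to 0.39. The median of all listed genes (0.0031) was -0.13 without TMM and -0.082 with TMM on strong genes, and ranged from -0.0086 to 0.00039 by library, so its sign has no weight; that of all listed regions (0.22) turned to -0.035 with no TMM and -0.0076 with TMM from strong regions. The causes were not tested. The other alternatives kept the direction of each median over members.

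Replicate numbers did not pair the states: same-number correlations of deviations were -0.0057, -0.16 and -0.18 for 5hmC and 0.015, -0.0022 and -0.0088 for 5mC. With the replicate block 15 5hmC members passed (13 lower), HIST1H2BI, HIST1H2BM, HIST1H4D and HIST1H2AG no longer among them, and 22 5mC members. Regions called were 20 and 17. The 5hmC gene median was -0.32; the 5mC medians were 0.46 and 0.34. Of the falls in 5hmC, 5 of 17 kept their call under all alternatives run, as did 1 of 2 rises; in 5mC 18 of 21 rises and the 1 fall did. Low counts limit narrow 5hmC regions.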
